A study of Drosophila melanogaster with 2 samples.

Results

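Of the 3292 thresholded Sage-GFP peaks on the chromosome arms of Drosophila melanogaster, 460 lay at divergent gene-pair promoters (14%, 95% interval 12.8 to 15.2). A divergent promoter is a stretch of DNA from which 2 neighbouring genes are read in opposite directions, 1 on the minus strand to the left and 1 on the plus strand to the right. A peak was counted when its summit lay within 500 bp of a transcription start site of a protein-coding gene, and when the nearest start sites on either strand belonged to different genes, pointed away from each other and lay at most 1000 bp apart. The rule uses positions and no measured value of binding beyond the submitters' own peak threshold. It was chosen with earlier results of these data known. The 460 summits fell at 436 different gene pairs with 898 genes, and made up 31.9% (95% interval 29.6 to 34.4) of the 1440 peaks within 500 bp of a protein-coding start site. The other 980 peaks of that kind are called other promoter peaks below. Arm 3R held 131 of the 460 peaks, 3L held 112, 2L held 95, 2R held 65, X held 55 and the fourth chromosome held 2.

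The data come from chromatin immunoprecipitation with sequencing (ChIP-seq) with an antibody against GFP. The larvae, of both sexes and wandering in the third instar, carried a transgene that makes Sage with GFP at its C-terminus, and whole animals were used, so the tissue a peak comes from cannot be told. There was 1 group with 2 samples, biological replicates 3 and 4. The labels do not say whether the larvae came from separate cultures, and with no second group no test between conditions was possible. The labels name an insertion that targets sage but not the promoter that drives the fusion protein, and peak lists hold no RNA levels with which markers of the salivary gland could be checked. The peaks are those of the list that the submitters thresholded on the irreproducible discovery rate (IDR), which compares how regions rank in the replicates. They are called IDR peaks here. Being in this list does not mean that a peak was found in each replicate. Of the 460 peaks, 14 had no region in replicate 3 and 15 had none in replicate 4. Reads were not among the files used, so read depth is unknown. The intervals given with shares are Wilson intervals that cover counting error only.

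Sage belongs to the basic helix-loop-helix (bHLH) family and is known as a regulator of genes for secreted proteins in the salivary gland. Proteins of this class bind as dimers to short sequences of the form CANNTG, called E-boxes. Divergent promoters are common in the compact fly genome and often serve housekeeping genes. The DNA replication-related element TATCGATA, abbreviated DRE and bound by the factor DREF, and the shorter core CGATA, bound by the insulator protein BEAF-32, are known from such promoters.

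The sequences below show what such a promoter looks like. They are the whole intervals between the start sites for the 6 strongest peaks on 2L, 3L, 3R, 4 and X that had start sites 60 to 300 bp apart and the summit between them, apart from intervals that overlap an annotated exon. All are from the plus strand of the RefSeq Release 6 genome (dm6 coordinates), so the left end adjoins the start of the minus-strand gene and the right end that of the plus-strand gene. Capitals mark an E-box or the core CGATA, which reads TATCG when it lies on the other strand.
Tcs5/CHMP2B, chr3L:5139396-5139618: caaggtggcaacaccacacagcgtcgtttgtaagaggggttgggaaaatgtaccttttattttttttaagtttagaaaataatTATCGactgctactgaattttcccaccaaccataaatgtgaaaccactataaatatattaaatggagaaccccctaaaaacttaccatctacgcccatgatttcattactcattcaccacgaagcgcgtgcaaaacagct
Art3/mRpS10, chr3R:15229409-15229664: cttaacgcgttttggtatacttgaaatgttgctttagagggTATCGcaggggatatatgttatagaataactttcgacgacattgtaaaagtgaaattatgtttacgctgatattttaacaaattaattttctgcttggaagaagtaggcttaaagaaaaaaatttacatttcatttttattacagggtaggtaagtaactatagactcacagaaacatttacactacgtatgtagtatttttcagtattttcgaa
CG13390/CG17294, chr2L:8376798-8377034: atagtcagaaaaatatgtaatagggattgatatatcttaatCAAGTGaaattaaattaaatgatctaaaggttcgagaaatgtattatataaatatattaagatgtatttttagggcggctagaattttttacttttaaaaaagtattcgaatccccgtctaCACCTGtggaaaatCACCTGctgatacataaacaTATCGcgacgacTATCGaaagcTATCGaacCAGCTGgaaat
CG3437/CG3552, chr3L:9457670-9457911: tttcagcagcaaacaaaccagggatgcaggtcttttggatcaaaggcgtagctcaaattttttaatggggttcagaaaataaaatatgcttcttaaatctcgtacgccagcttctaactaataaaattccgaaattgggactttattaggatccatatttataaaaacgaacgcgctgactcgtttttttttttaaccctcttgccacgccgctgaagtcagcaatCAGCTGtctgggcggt
Lon/PIG-F, chr3L:19612200-19612454: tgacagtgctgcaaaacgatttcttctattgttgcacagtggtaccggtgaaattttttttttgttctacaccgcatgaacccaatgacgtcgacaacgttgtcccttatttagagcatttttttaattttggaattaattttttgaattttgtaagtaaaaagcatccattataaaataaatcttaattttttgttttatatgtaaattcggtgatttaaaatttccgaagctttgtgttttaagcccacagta
Mkk4/SLIRP2, chr3R:8650797-8651083: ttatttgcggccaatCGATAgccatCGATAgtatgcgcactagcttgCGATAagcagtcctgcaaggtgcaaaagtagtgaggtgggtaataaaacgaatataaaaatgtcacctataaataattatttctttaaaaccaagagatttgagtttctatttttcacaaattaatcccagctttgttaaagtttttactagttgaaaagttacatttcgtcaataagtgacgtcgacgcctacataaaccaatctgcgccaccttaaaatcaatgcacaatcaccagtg

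These 6 intervals were 223 to 287 bp long and had a GC content of 30.1 to 40.1%. The strongest of them belonged to Tcs5, which encodes a kinase of a tRNA-modifying complex, and CHMP2B, which encodes a membrane-remodelling protein. It had no E-box, and its only CGATA core lay 15 bp from the summit. The interval of Art3, a protein arginine methyltransferase gene, and mRpS10 also had no E-box, with 1 CGATA core 108 bp from the summit. The interval of CG13390 and CG17294 had 4 E-boxes, at 42.5, 78.5, 92.5 and 142 bp from the summit, and 3 CGATA cores on the side of CG17294. CG3437 and CG3552 shared 1 E-box, 126 bp from the summit. Neither motif was present between Lon, the gene of a mitochondrial protease, and PIG-F, a gene of GPI-anchor synthesis. Between Mkk4, a kinase gene of the JNK pathway, and SLIRP2 there were 3 CGATA cores, 108 to 140 bp from the summit. A match describes the letters only, and the absence of one says nothing about the factor.

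A further 4 intervals from the same arms were the next strongest of the same kind that held a DRE or an E-box within 50 bp of the summit. The following 2 hold a DRE, which contains the CGATA core on both strands.
CG9636/CG18749/CG33722, chr3R:8243793-8244054: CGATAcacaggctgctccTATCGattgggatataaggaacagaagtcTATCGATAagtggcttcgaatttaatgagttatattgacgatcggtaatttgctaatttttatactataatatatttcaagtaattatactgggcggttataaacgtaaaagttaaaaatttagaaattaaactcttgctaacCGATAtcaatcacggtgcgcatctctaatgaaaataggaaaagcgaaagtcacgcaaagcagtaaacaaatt
CG9667/Arl8, chr3R:8126358-8126604: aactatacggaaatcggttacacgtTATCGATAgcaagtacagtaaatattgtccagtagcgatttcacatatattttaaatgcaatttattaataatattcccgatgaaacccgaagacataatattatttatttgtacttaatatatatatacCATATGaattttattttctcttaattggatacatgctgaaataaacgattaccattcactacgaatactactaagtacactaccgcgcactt
The next 2 hold an E-box near the summit.
CG7601/CIA30, chr3R:29736746-29736964: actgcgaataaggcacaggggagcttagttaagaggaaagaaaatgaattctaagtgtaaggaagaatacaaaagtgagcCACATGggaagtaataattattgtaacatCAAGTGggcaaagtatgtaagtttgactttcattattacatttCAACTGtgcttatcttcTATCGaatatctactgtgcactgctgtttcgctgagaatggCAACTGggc
Kmn2/CG2698, chr3R:8001310-8001561: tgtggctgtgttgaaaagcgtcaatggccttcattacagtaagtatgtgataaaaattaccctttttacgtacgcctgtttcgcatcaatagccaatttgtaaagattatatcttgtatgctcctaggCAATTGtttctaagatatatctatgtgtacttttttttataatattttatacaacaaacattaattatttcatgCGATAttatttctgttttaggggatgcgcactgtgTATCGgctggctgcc

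The DRE of CG9667 and Arl8, a lysosomal small GTPase gene, lay 1.5 bp from the summit, and that of CG9636 and its plus-strand partner 44.5 bp from it. These peaks were weaker than the 6 above, with a signal of 141 at CG9667/Arl8 and 225 at CG9636. The interval of CG7601 and CIA30, which encodes an assembly factor of respiratory complex I, had 4 E-boxes, the nearest 18.5 bp from the summit, and a signal of 438. In the interval of Kmn2, a kinetochore gene, and CG2698 the only E-box lay 17.5 bp from a summit with a signal of 387.

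Binding strength is given as the signal, a value that the submitters' peak caller set for each region on a scale the sources used here do not give. Signals are therefore read within a single list. The value of an IDR peak comes from the pooled replicates, and each replicate also has its own list. Over the 460 peaks the pooled signal ran from 95.8 to 1312, with quartiles of 112, 135 and 178. The other promoter peaks ran from 95.7 to 1265 with quartiles of 112, 136 and 190. Of the 100 strongest IDR peaks on the arms, 26 were at divergent promoters (95% interval 18.4 to 35.4), which held 14.0% of all IDR peaks on the arms. Other promoter peaks, 980 of the 3292, made up 29 of the 100 (95% interval 21.0 to 38.5).

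The strongest divergent-promoter peak lay between Ugalt, the Golgi UDP-galactose transporter gene, and eIF2Bbeta, which encodes a subunit of a translation initiation factor. It spanned chrX:2703717-2704058, had a signal of 1312, and measured 592 in replicate 3 (rank 2) and 762 in replicate 4 (rank 12). Its summit was 44 bp from the start site of Ugalt, with 719 bp between the start sites of the pair. The second had its summit 81 bp inside PNPase, the polynucleotide phosphorylase gene, opposite Gprk2, a G protein-coupled receptor kinase gene (signal 1200, chr3R:31404507-31404813). It measured 523 in replicate 3 and 690 in replicate 4, ranks 4 and 15. The third lay 95 bp from the start site of CenG1A, an Arf GTPase-activating protein gene, in the interval it shares with mRpS23, a gene of the mitochondrial ribosome (chr2L:13835303-13835610). Its signal was 1074, with 410 in replicate 3 and 668 in replicate 4. Both replicates thus placed all 3 among their 16 strongest regions.

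The other 12 of the 15 strongest peaks had signals from 974 down to 564, and served varied cellular roles. Fbw5/CG9147 (974), with an F-box protein gene, had 404 in replicate 3 and 574 in replicate 4. Chro/Ssl1 (918) joins the gene of Chromator, a chromosomal protein that binds with BEAF-32 at domain borders, to a gene for a subunit of the transcription factor TFIIH. Its summit was 70 bp inside Chro, and its replicate signals were 434 and 482. Tcs5/CHMP2B (907) had 427 and 483, CG11309/CG7632 (760) had 317 and 438, and Art3/mRpS10 (705) had 335 and 376. Replicate signals at CG8372/CG8360 (664) were 294 and 366. At CG13390/CG17294 (655) they were 289 and 374. CG5611/Mtl (615), with a Rac-like GTPase gene, was the only one of the 15 with a lower value in replicate 4, at 326 and 297, although values of different lists need not share a scale. The remaining 4 were mRpL41/CG8079 (594), Gcn5/ver (592), Pex11ab/CG8320 (569) and Stt3A/bves (564), whose named genes encode a mitochondrial ribosomal protein, a histone acetyltransferase, a telomere-capping protein, a peroxisomal protein and an oligosaccharyltransferase subunit. All 15 ranked within the first 69 regions of replicate 3 and the first 72 of replicate 4. In 10 of the 15 the summit lay between the start sites, against 76.7% of all 460. Within 50 bp of the summit, 6 of the 15 had an E-box, 2 had a CGATA core and 0 had a DRE. Over all 460 peaks these shares were 34.8%, 23.7% and 5.43%.

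At the weak end were Alms1a/pon (96.2), sqd/rin (96.1), CG2993/sgll (96.1), aPKC/ckn (96.0) and FucTB/scat (95.8). FucTB/scat had a signal of 85.5 in replicate 3 and no region in replicate 4. The lowest signal of any IDR peak was 95.7. The strongest divergent-promoter region outside the IDR list, at rux/MCTS1, had a pooled signal of 95.7 and rank 3313, and was followed by peo/CG12744 at 95.5 and CG11076/ATPsynbeta at 95.5. In all, 916 weaker regions of the pooled list met the same positional rule.

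The summits lay mostly between the start sites. This held for 353 of 460 (76.7%, 95% interval 72.7 to 80.4), while 64 (13.9%) lay inside the minus-strand gene and 43 (9.35%) inside the plus-strand gene. The minus-strand start site was the nearer one for 230 of the 460. The median distance to the nearer start site was 94.0 bp, with quartiles of 48.2 and 146 bp and extremes of 1 and 465 bp. For the other promoter peaks the median was 166 bp, with quartiles of 83.0 and 277 bp, and 822 of 980 (83.9%) lay upstream of their nearest start site. The start sites of a pair were 6 to 1000 bp apart, with quartiles of 247, 352 and 554 bp. The rule itself limits these distances, so none of the differences from other promoter peaks was tested.

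**Figure D1:**
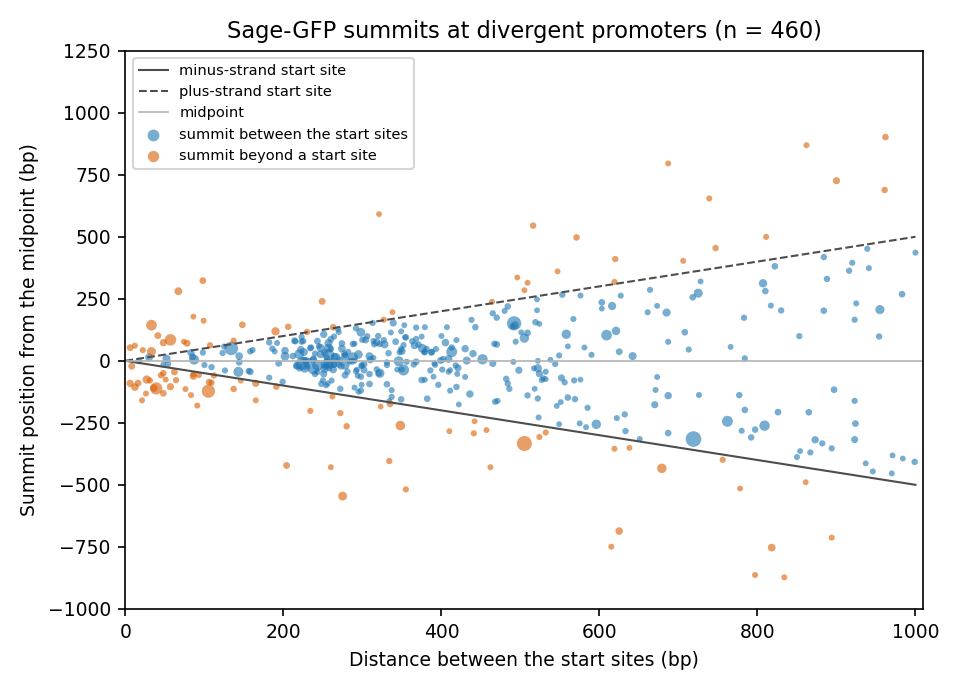
Position of each of the 460 summits relative to the midpoint of its pair (vertical axis, bp, minus-strand side negative) against the distance between the start sites (horizontal axis, bp), with larger points for higher signal. Most summits, 353, lie between the lines that mark the start sites, and at distances of 201 to 300 bp they gather near the midpoint.

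Where the summit fell differed with the distance between the start sites. With 1 to 100 bp between them, only 10 of 47 summits (21.3%, 95% interval 12 to 34.9) fitted in between, and 83.0% of the regions covered both start sites. With 101 to 200 bp the count was 19 of 32 (59.4%). From 201 to 300 bp 94 of 105 summits lay between (89.5%, 95% interval 82.2 to 94.0), at a median of 35.5 bp from the midpoint, and 51 of those 94 (54.3%) were in the middle 1 of 3 equal parts of the interval. At 601 to 1000 bp 76 of 99 lay between (76.8%), now at a median of 248 bp from the midpoint and 120 bp from the nearer start site, with 11 of 76 (14.5%) in the middle part. Over all distances the 353 summits in between were split as 92, 140 and 121 over the 3 parts from the minus-strand gene to the plus-strand gene.

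The pairs with the closest start sites were CG3032/CG4593 and CG7246/HP1b, each 6 bp apart, SerRS/CG17260 at 8 bp, and CG9921/Dsp1 and CG2004/CG1785, each 12 bp apart. HP1b encodes a heterochromatin protein 1 relative, SerRS a seryl-tRNA synthetase and Dsp1 a high-mobility-group protein. Their pooled signals were 211, 171, 175, 109 and 233 in that order, and all 5 summits lay inside 1 of the genes. The widest pairs were CG15213/Yod1 at 1000 bp (signal 113), hts/CalpA at 999 bp (145), Smg5/Ance at 984 bp (96.2), ND-75/CG1632 at 983 bp (157) and sqd/rin at 971 bp (96.1). In these 5 the summits were all in between. Near the edge of the rule, the 21 peaks with start sites 901 to 1000 bp apart had a median signal of 122, and the 15 just outside, at 1001 to 1100 bp, had 118. The 3 peaks with a summit 451 to 500 bp from a start site had a median of 109, and the 10 at 501 to 550 bp had 135.

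**Figure D2:**
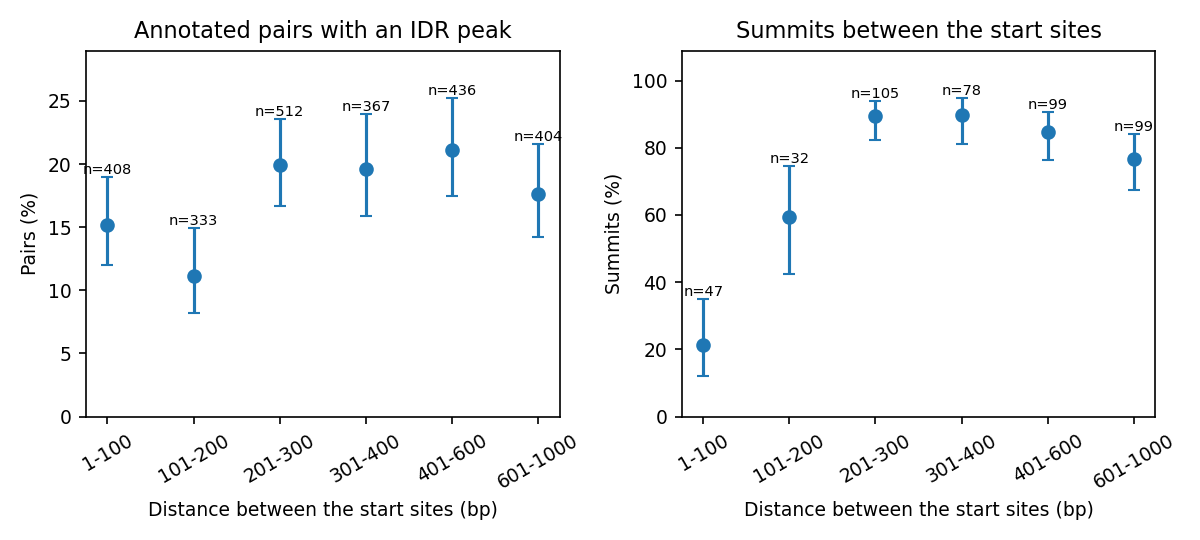
Left, share of annotated divergent pairs with an IDR peak by distance between their closest start sites. Right, share of summits that lay between the start sites, by distance between the start sites nearest the summit. Points are percentages, bars are 95% Wilson intervals and n is the number of pairs or summits. The right panel rises from 21.3% to 89.7% at 301 to 400 bp and then falls to 76.8% at 601 to 1000 bp, and the left panel stays between 11.1% and 21.1%.

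Among annotated promoters, divergent pairs with a peak were a minority. Ensembl release 115 gave 2460 neighbouring pairs that met the distance rule, and 436 of them had a peak (17.7%, 95% interval 16.3 to 19.3). By distance between the start sites, the share was 62 of 408 pairs at 1 to 100 bp (15.2%), 37 of 333 at 101 to 200 bp (11.1%, 95% interval 8.17 to 14.9), 102 of 512 at 201 to 300 bp (19.9%), 72 of 367 at 301 to 400 bp (19.6%), 92 of 436 at 401 to 600 bp (21.1%) and 71 of 404 at 601 to 1000 bp (17.6%). The interval at 101 to 200 bp lies below those of the 3 bins from 201 to 600 bp, and the others overlap each other.

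Counted by genes, 12.1% of all 13945 protein-coding genes on the arms had an IDR summit within 500 bp of a start site. Of the 8926 genes in no divergent pair it was 791, or 8.86% (95% interval 8.29 to 9.47). Of the 5019 genes in such pairs it was 897 (17.9%, 95% interval 16.8 to 19.0), and 898 of them (17.9%) belonged to a pair with a counted peak. A single peak can count for both genes of a pair, and both genes also enter the total. Counted by pairs, the share with a peak was 436 of 2460 (17.7%). The part of this counting in the gap to genes in no pair was not tested. The replicates gave different levels. In the 3312 strongest regions of replicate 3, 517 pairs had a summit that met the rule (21.0%, 95% interval 19.5 to 22.7), and in those of replicate 4 there were 406 (16.5%, 95% interval 15.1 to 18.0). A further 9 pairs had an IDR summit within 500 bp of a start site that the rule did not count for them. Among the remaining 2015 pairs, here called pairs without an IDR peak, 525 (26.1%) had a weaker region in the pooled list, and 20 (0.993%) met one of the strongest regions in both replicates.

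Most divergent-promoter peaks had a region in each replicate's long list, but they ranked higher in replicate 3. A region was found in replicate 3 for 446 of the 460 peaks and in replicate 4 for 445, and 431 had both. Of the 460, 377 (82.0%, 95% interval 78.2 to 85.2) met one of replicate 3's 3312 strongest regions and 327 (71.1%, 95% interval 66.8 to 75) one of replicate 4's. Other promoter peaks stood the other way round, with 732 of 980 (74.7%, 95% interval 71.9 to 77.3) in replicate 3 and 800 (81.6%, 95% interval 79.1 to 83.9) in replicate 4. Both replicates' strongest regions were met by 264 divergent-promoter peaks (57.4%) and by 581 other promoter peaks (59.3%). Replicate 3 alone accounted for 113 (24.6%) and 151 (15.4%), and replicate 4 alone for 63 (13.7%) and 219 (22.3%). Neither held 20 of the divergent-promoter peaks. Median ranks were 1366 in replicate 3 and 2122 in replicate 4 for divergent-promoter peaks, and 1690 and 1587 for other promoter peaks.

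Among peaks with a region in both, 297 of 431 (68.9%) had the better rank in replicate 3, where other promoter peaks had 488 of 942 (51.8%) and the remaining IDR peaks 868 of 1808 (48.0%). Base composition close to the summit moved with this split. Median GC content of the 101 bp around the summit was 30.7% for peaks strong in both replicates, 30.7% for those strong in replicate 3 alone and 37.6% for those strong in replicate 4 alone, and 33.7%, 33.7% and 41.6% for other promoter peaks. Over 501 bp the medians at divergent promoters were 36.7%, 35.1% and 36.5% in the same order, so peaks strong in replicate 4 alone did not stand out. At other promoter peaks they were 38.7%, 35.9% and 40.9%. Across peaks, which share these 2 libraries, the log2 ratio of replicate 3 to replicate 4 signal and the GC content of 501 bp gave a Spearman coefficient of -0.221 at divergent promoters and -0.355 at other promoters. The part of base composition in the replicate difference was not tested.

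**Figure D3:**
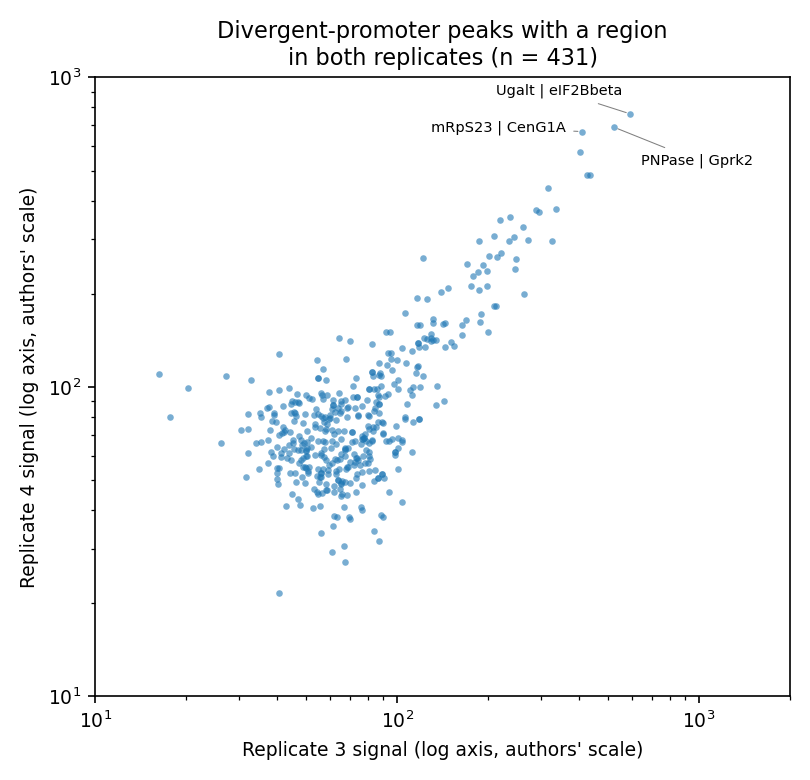
Signal in replicate 4 against replicate 3 (log axes, each on the peak caller's own scale) for the 431 divergent-promoter peaks with a region in both lists, each point 1 peak. The strong peaks, with the 3 strongest named, line up, whereas signals near 100 and below spread widely, and Pearson's coefficient of the log2 values is 0.727 and Spearman's 0.507.

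The replicates placed their summits a median of 28.0 bp apart, and 286 of 431 (66.4%) were within 50 bp of each other. For other promoter peaks these were 39.0 bp and 553 of 942 (58.7%). There were 14 peaks with no region in replicate 3 and 15 with none in replicate 4. The strongest was Ing5/CG7099, near a gene of a chromatin-reader family, with a pooled signal of 296, a replicate 3 signal of 159 at rank 166, and no region in replicate 4. Nepl19/Nepl20, a pair of neprilysin-like metallopeptidase genes, had 196 in the pooled list, 118 in replicate 4 and no region in replicate 3. Art8/dUTPase (181) also lacked a region in replicate 3, with 97.6 in replicate 4. Both mRpL15/CtIP (172) and CG4049/CG3253 (159) lacked one in replicate 4, with 64.4 and 74.9 in replicate 3.

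A single pair could carry more than 1 summit. This was so for 22 pairs, with 46 of the 460 peaks. Their 24 pairs of neighbouring summits were 199 to 2188 bp apart, and in 14 of these the regions overlapped, and such neighbours often met the same region of a replicate. Fer1HCH and Fer2LCH, the genes of the heavy and light chains of the iron store ferritin, had 3 separate summits with signals of 168, 169 and 140, of which 1 lay 320 bp inside Fer1HCH and the others 274 and 208 bp beyond a start site of Fer2LCH. Replicate 3 gave them 80.2, 104 and 60.1, and replicate 4 gave 81.3, 67.1 and 81.4. Tom7, of the mitochondrial import pore, and its partner locus also had 3 summits, with 130, 172 and 101, in overlapping regions. E(spl)mdelta-HLH, a Notch target gene, and CG43116 had separate summits of 229 and 168, which were 723 bp apart. Both p38 kinase genes were in this group, p38a/CG6178 with 161 and 107 and CG9008/p38b with 203 and 96.9, in overlapping regions at each pair. The lipase gene bmm, which controls fat storage, shared summits of 107 and 107 with Tdrd3, also in overlapping regions.

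The genes at these promoters were then read by role, from lists defined by gene symbol. For each list the genes that sit in annotated divergent pairs were counted, and the share whose pair had a peak was set beside the 17.9% over all genes of such pairs. Lists and members were drawn up with earlier results of these data known, and no list was tested. The intervals are not adjusted for the number of lists. The 2 ribosomal protein lists had the most genes at peaks among the named functional lists. They also had the most genes in divergent pairs among those lists, 54 cytosolic and 58 mitochondrial.

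Cytosolic ribosomal proteins had 54 genes in divergent pairs, of which 18 had a peak (33.3%, 95% interval 22.2 to 46.6). The interval starts above 17.9%. With the strongest regions of replicate 3 the count was 15 (27.8%, 95% interval 17.6 to 40.9), which includes the 21.5% of all genes of pairs in that replicate, so the separation is not seen there. With those of replicate 4 it was 23 (42.6%, 95% interval 30.3 to 55.8), above the 16.6% of all genes of pairs. The strongest was RpL32/CG7943, with a pooled signal of 270 and replicate signals of 144 and 135, and its summit was 136 bp from CG7943. Next was Ripalpha/RpL7 with 267 (116 and 158), 1 bp from the RpL7 start site. RpS28b (213) and RpL34a (177) followed, and the other 14 ran from 163 at RpS27 to 100 at RpS6. In 12 of the 18 the ribosomal gene had the nearer start site.

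Mitochondrial ribosomal proteins had 58 genes in pairs, of which 15 had a peak (25.9%, 95% interval 16.3 to 38.4), with an interval that includes the share of all pair genes. Replicate 3 gave 18 and replicate 4 gave 12. Signals were higher than in the cytosolic list, with a median of 191 against 127, led by mRpS23 (1074), mRpS10 (705), mRpL41 (594) and mRpL23 (485). The lowest was mRpS7 with 97.3, in a pair with the cell cycle kinase gene Cdk1. The mitochondrial gene had the nearer start site in 5 of 15.

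The list of respiratory chain and ATP synthase subunits had 6 of 44 (13.6%), led by ND-ASHI/Fum1 (294). Its count was 14 with replicate 3's regions and 5 with replicate 4's. For aminoacyl-tRNA synthetases, which charge tRNAs with amino acids, it was 5 of 23 (21.7%), with SerRS at 175 and GluProRS at 161. Translation factors had 4 of 27 (14.8%), eIF2Bbeta at 1312, eIF4EHP at 352, eRF1 at 141 and eEF1alpha1 at 133, of which only eRF1 was the nearer gene of its pair. The summit at eIF2Bbeta was 675 bp from its start site. The count was 6 with replicate 3 and 5 with replicate 4. Secretory pathway genes had 7 of 29 (24.1%, 95% interval 12.2 to 42.1), from Sec20 at 200 to Tango11 at 97.9, and these included Sec13 and Sec23 of the COPII vesicle coat. Chaperone genes had 4 of 16 (25%), Hsp83 at 381, Hsc70-4 at 151, CCT1 at 100 and CCT5 at 99.7, each the nearer gene of its pair. Hsp83 measured 122 in replicate 3 and 260 in replicate 4.

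Nuclear roles were also represented. Chromatin architecture genes had 3 of 11 (27.3%, 95% interval 9.75 to 56.6), with Chro at 918, Su(var)205, the gene of heterochromatin protein 1a, at 134, and M1BP, the gene of a factor that binds the promoter element Motif 1, at 124. Polycomb and trithorax genes had 2 of 12, brm, the ATPase of a chromatin remodeller, at 475 (264 in replicate 3 and 200 in replicate 4), and E(z), a histone methyltransferase, at 172. RNA polymerase II and its general factors had 5 of 44 (11.4%), with the Mediator genes MED27 at 273, MED30 at 242 and MED7 at 181. Splicing factors had 5 of 31 (16.1%), nuclear pore genes 2 of 19 (10.5%), DNA replication genes 2 of 20 and ribosome assembly genes 2 of 19 (10.5%). Cell cycle regulators had 4 of 16 (25%), led by stg, the phosphatase that triggers mitosis, at 284. Proteasome subunits had 2 of 26 (7.69%, 95% interval 2.14 to 24.1), Rpn13 at 163 and Rpn5 at 126. Autophagy genes had 3 of 16, Rab GTPases 2 of 18 and vacuolar ATPase subunits 2 of 14. Several of these counts differed between the replicates. With replicate 3's regions the autophagy count was 7, the chromatin architecture count 5, and the proteasome, Rab and vacuolar ATPase counts 4 each, where replicate 4 gave 3, 4, 2, 2 and 3. The cell cycle count was 4 with replicate 3 and 2 with replicate 4, splicing factors had 6 and 3, DNA replication genes 3 and 1, ribosome assembly genes 1 and 4, and nuclear pore genes 2 and 3. The list gene was never the nearer one at the peaks of proteasome, nuclear pore, DNA replication, Rab and vacuolar ATPase genes, and it was in 2 of 2 at ribosome assembly genes.

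Of the ecdysone response genes, only 4 sit in divergent pairs, and 2 had a peak. They were tai, a coactivator of the ecdysone receptor, at 222 and usp, the receptor's partner, at 125. The glue genes, which encode the secreted salivary glue, had 0 of 6 (95% interval 0 to 39.0), and the 1 gene of the salivary gland transcription factor list that sits in a pair had none. Genes known only by a CG number had 292 of 1751 (16.7%, 95% interval 15 to 18.5), with an interval that includes 17.9%. A few peaks served list genes on both sides, RpS27/Nup37 (163), ATPsynCF6/Sec13 (166), Sec3/COX7B (156) and Cdk1/mRpS7 (97.3).

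**Figure D4:**
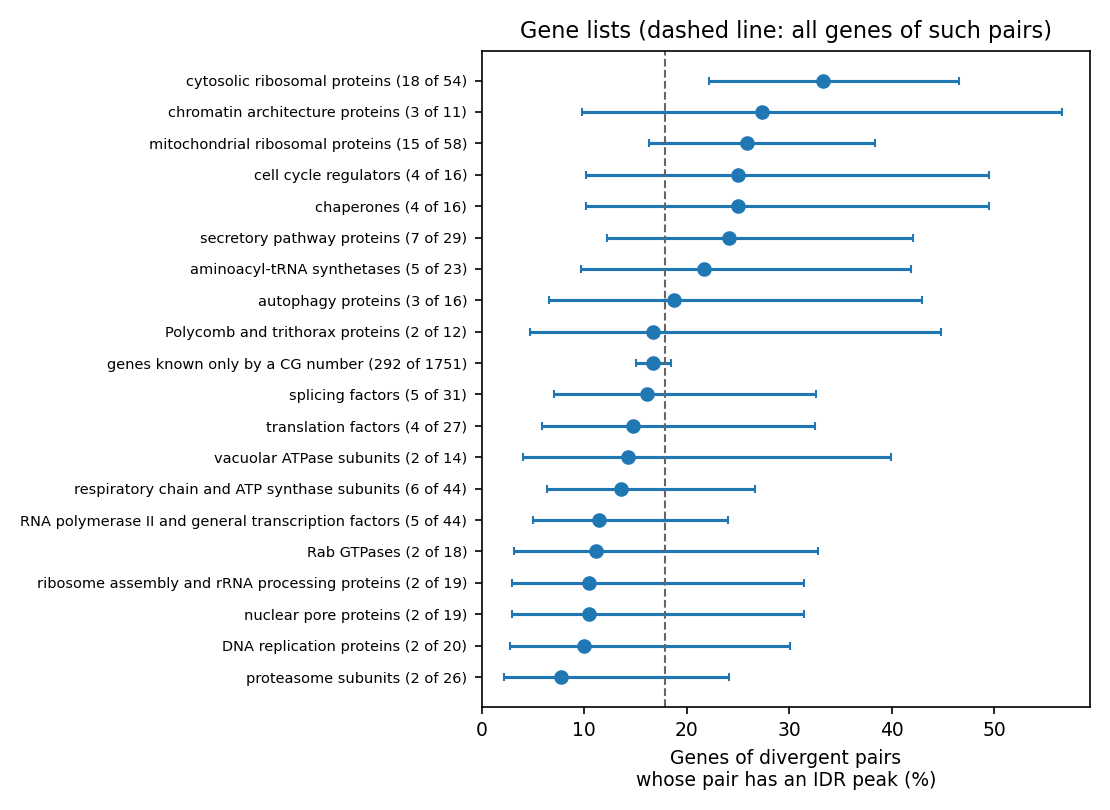
Share of the genes of each list in annotated divergent pairs whose pair had an IDR peak (horizontal axis, percent), for lists with at least 10 such genes. Points are percentages, bars are 95% Wilson intervals, counts stand beside the names, and the dashed line is the 17.9% over all genes of such pairs. Only the bar of the cytosolic ribosomal proteins lies wholly on 1 side of the line. The bars are not adjusted for the number of lists. With the strongest regions of replicate 3, the interval of that list included the share of all genes of pairs.

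The DNA under the summits was rich in A and T. Mean GC content of the 101 bp centred on the summit was 32.7% at the 460 peaks and 47.1% in flanking windows centred 500 bp to either side. The midpoints of the 2015 pairs without an IDR peak were also low, at 33.8%, with 49.0% in their flanks. The midpoints of the pairs with a peak were at 30.8%, other promoter peaks at 36.5%, the start sites of genes in no pair at 42.1% and the arms as a whole at 42.2%. The strongest of 3 equal groups by signal had 30.2%, and the middle and weakest groups 34.0% and 33.9%. Of all 6-base words present in at least 10% of the windows, AAATTT had the highest ratio to the flanks, with 22.6% of windows against 4.57%. TATCGA, part of the DRE, stood ninth in that order, with 15.2% against 3.91% in flanks, and 9.29% at other promoter peaks.

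E-boxes were no more frequent under the summits than beside them. Any CANNTG was in 34.8% of the 101 bp windows (160 of 460, 95% interval 30.6 to 39.2), in 41.8% of flanks (38.7 to 45.1), in 35.4% of midpoints of pairs without an IDR peak (33.3 to 37.5), in 36.6% of other promoter peaks and at 39.2% of the start sites of genes in no pair. Motif matches were taken from either strand. Of the single E-boxes, CAGCTG was in 6.96% of windows and 6.63% of flanks. CATCTG was in 2.61% of windows against 4.35%, and CAGGTG in 1.74% against 6.85%. CACGTG was in 1.52% against 1.63%, and CATATG in 1.96% of each. At midpoints, CACGTG was in 1.61% (0.780 to 3.28) of pairs with a peak and 0.596% (0.341 to 1.04) of pairs without, intervals that overlap. The other single E-boxes were no more frequent at the midpoints of pairs with a peak than of those without. GC content differs between these windows, and its part in the shares was not tested. Matches did not gather at the summit, with 94 within 25 bp, 108 at 25 to 50 bp, 232 at 50 to 100 bp and 249 at 100 to 150 bp, where each of the latter ranges is 2 times as wide as each of the first 2.

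The DRE, the CGATA core and the TATA box were more frequent under the summits than in the flanks. GC content was 32.7% in the windows and 47.1% in the flanks, and its part in these shares was not tested. AAATTT, a word of A and T alone, was in 22.6% of windows and 4.57% of flanks. Pairs with and without a peak are best set side by side at their midpoints, since summits need not lie there. The DRE was in 25 of 460 windows (5.43%, 95% interval 3.71 to 7.90), in 0.870% of flanks, in 5.16% (4.28 to 6.22) of midpoints of pairs without an IDR peak and in 2.24% (1.49 to 3.38) of other promoter peaks. It was in 3.67% (2.27 to 5.88) of midpoints of the pairs with a peak. The CGATA core, which every DRE contains, was in 23.7% of windows (20.0 to 27.8), 12.4% of flanks, 25.5% (23.6 to 27.4) of midpoints of pairs without an IDR peak and 19.0% of other promoter peaks. At the midpoints of pairs with a peak it was in 17.9% (14.6 to 21.8), an interval below that of pairs without one. GC content at midpoints was 30.8% in pairs with a peak and 33.8% in pairs without. Its part in the shares at midpoints, and that of the distance between the start sites, was not tested. Like E-boxes, neither the DRE nor the CGATA core gathered at the summit within 150 bp. DRE matches numbered 15 within 25 bp, 11 at 25 to 50 bp, 22 at 50 to 100 bp and 25 at 100 to 150 bp. CGATA matches numbered 97, 90, 176 and 194 in the same ranges. By signal, the DRE was in 4 of 154 windows in the strongest of 3 equal groups (2.60%, 1.01 to 6.49). It was in 8 of 153 in the middle group (5.23%, 2.67 to 9.98) and 13 of 153 in the weakest (8.50%, 5.03 to 14.0). CGATA was in 16.9% (11.8 to 23.6), 25.5% (19.2 to 32.9) and 28.8% (22.2 to 36.4). For both motifs the intervals of the groups overlap. The TATAAA box was in 26.1% of windows against 8.91% of flanks, and at midpoints in 28.4% (24.4 to 32.8) of pairs with a peak and 22.6% (20.9 to 24.5) of pairs without. GAGAG, the site of the GAGA factor, was in 8.91% of windows (6.64 to 11.9), 7.64% of those midpoints and 22.6% (20.0 to 25.3) of other promoter peaks. The Motif 1 core GTCACACT was in 1.74% of windows and 2.43% of those midpoints. The forkhead core TGTTTAC was in 3.48% of windows against 2.17% of flanks, and the CREB core TGACGT in 3.26% against 2.61%. AAATCA, the core of the Senseless site, was in 11.5% against 8.15%. The nuclear receptor half-site AGGTCA was in 1.30% against 3.26%, and the Zelda site CAGGTAG in 0.217% against 0.652%. At midpoints, the CREB core was in 3.44% (2.10 to 5.60) of pairs with a peak and 1.59% (1.13 to 2.23) of pairs without, intervals that overlap. In the same order, the forkhead core was in 2.52% and 3.08%, and AAATCA in 13.8% and 12.5%. The half-site was in 1.61% and 2.08%, and the Zelda site in 0.459% and 0.298%.

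**Figure D5:**
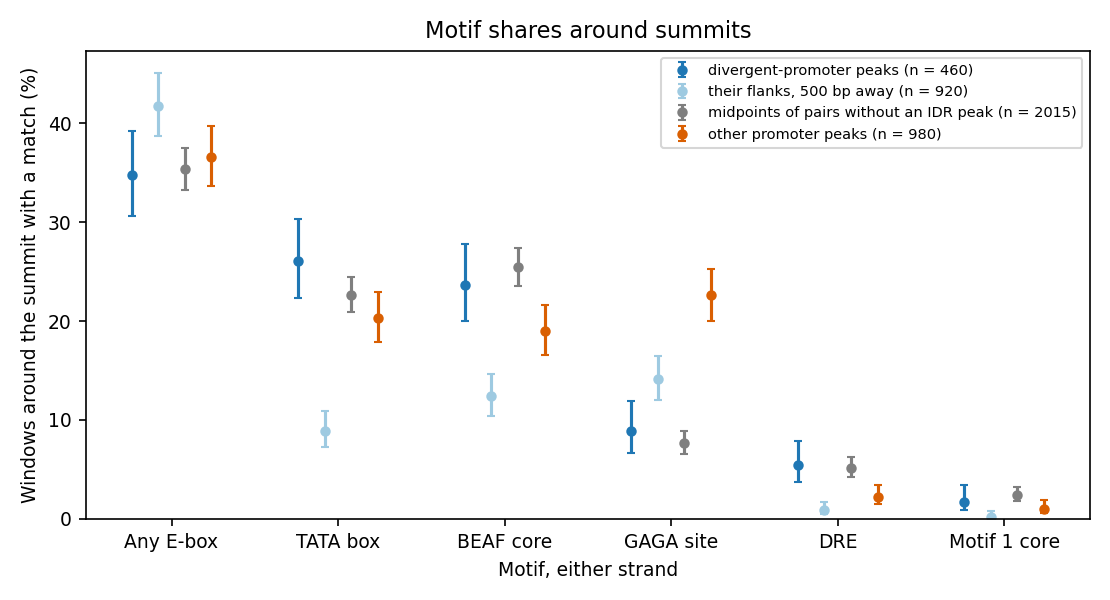
Share of 101 bp windows that hold each motif on either strand (vertical axis, percent), for divergent-promoter peaks, their flanks, midpoints of divergent pairs without an IDR peak and other promoter peaks. Points are percentages and bars 95% Wilson intervals. Windows of the peaks are centred on summits and those of pairs without a peak on midpoints. The DRE, the BEAF core and the TATA box stand above the flanks, and at midpoints of pairs with a peak, not drawn, the BEAF core was in 17.9%.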

How the data were processed

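ChIP-seq peak lists of whole sage-GFP larvae (biological replicates 3 and 4) were used on dm6. Per the labels and deposited text, the authors called regions on each replicate and on the pooled alignments against a control, and the IDR list holds regions past their threshold. Signal values of regions are as deposited by the authors. The sources used here name no aligner or peak caller. The dm3 lists and the control library were not used here. The lists held 29999, 30000 and 30000 regions, and 3312 in the IDR list, of which 20 on the mitochondrial genome were left out.

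Start sites of all protein-coding transcripts came from Ensembl release 115. Genes sharing a start site were merged. A replicate matched a peak when its region overlapped by 1 bp, and as many of its strongest regions were taken as there are IDR peaks. Sequences of arm 2R are not printed. Motifs were searched 50 bp to either side of the summit. Shares carry 95% Wilson intervals, and no test was run. Scripts used Python 3.11.15, NumPy 2.4.6, pandas 2.3.3 and SciPy 1.17.1, and were checked on simulated data. Members and gene lists were chosen with earlier results of these data known. Named pairs are the 15 strongest and 5 weakest peaks, the 5 closest and 5 widest pairs, up to 5 peaks lacking a replicate region, pairs with several summits, list genes, and the genes of the printed sequences. Alternatives changed the distances, the peak threshold, the replicate, the annotation, the overlap and the motif window.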

Additional observations from a re-analysis of the deposited data

How the results depend on the processing

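Of 43 alternatives, 35 moved their result by less than its interval or 1.5 times and 8 by more. The share of pairs with a peak was 15.5% with summits within 200 bp of a start site, and 16.5 to 21.0% with 1 replicate left out. With the 1656 strongest IDR regions, 225 peaks remained, 8.98% of pairs had one, 3.56% of windows held a DRE, and 91.1% met strong regions of both replicates. With 100 bp on either side of the summit, 9.78% of windows held a DRE and 61.1% an E-box, the windows being longer. Beyond these window lengths and the smaller number of peaks, the cause was not tested. The share of summits between the start sites kept within its interval under all 7 alternatives run on it. No paired analysis was possible because there was only 1 group. Read depth is unknown, so weak regions near the IDR threshold cannot be separated from its error.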
